A study of Arabidopsis thaliana with 3 samples.

Results

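Chloroplast RNA-binding ribonucleoproteins (cpRNPs) are nuclear-encoded proteins with RNA recognition motifs that are imported into the chloroplast. Of 9 listed cpRNP genes of Arabidopsis thaliana, 5 were measured here, by 6 of the 28785 features of the array. They were AT2G37220, AT1G60000 (read by 2 features), AT2G35410, AT1G01080 and AT4G09040. The genes were taken from a list of loci, through a probe table that gives Entrez gene numbers and the RefSeq table that turns these into locus tags. The other 4, CP29 (AT3G53460), RBP31 (AT4G24770), CP31B (AT5G50250) and CP33 (AT3G52380), were paired with no feature in these tables and were not analysed here. The cpRNP genes were chosen by gene family, with the log2 values of the 5 measured genes on these 3 arrays already known. The differences of these genes from wild type were known as well, so they are given as a description, with no test.

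Chloroplast transcripts are made as long precursors that are spliced, edited, trimmed and protected by proteins from the nucleus. The cpRNPs are abundant stromal proteins that bind many chloroplast mRNAs, protect them from nucleases and assist editing and splicing of some of them. Some members of the family are known to be needed for chloroplast RNA stability and greening in the cold.

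Each of the 3 one-colour arrays held total RNA of rosette leaves from plants of the Columbia accession Col-0 aged 2 weeks. Wild-type plants were represented by 1 array. RNA of transgenic plants numbered 41 and 45 (line 41 and line 45 below) was on the other 2. They express AtMYB23SRDX under the control of 35S, a viral promoter active in most plant tissues. MYB23 promotes trichome formation, and fusion to the SRDX domain makes a transcription factor repress the genes it binds. The deposited values were read as log2 expression. The labels name no separate cultures or pools, so any spread given is that between the arrays of line 41 and line 45, and the wild-type array has no replicate. Precision is limited by the 3 arrays.

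The leaf label was set against marker genes. Here and below, a gene is said to be on the array where the tables used pair it with a feature. Of the 28785 features, 11206 had no named gene, so a gene without such a pairing may still be on it. Of 19 leaf markers, 4 were on the array (LHCB4.1, LHCB4.2, RCA and PRK), and their brightest features lay between 7.19 and 11.90 in wild type, between 10.31 and 14.13 in line 41 and between 9.85 and 13.75 in line 45. All 4 were called higher in the lines by limma, with a median log2 change of 2.46, where 14.6% of all features tested were called higher. Without the dim filter 0 of the 4 were called, as were 0 of all 28124 features then tested. After quantile normalization all 4 were still called higher, as were 2602 of all 16905 features tested. The median was then 1.06, and 2 of the 4 were at least 2-fold higher in both lines, as were 1402 of all features tested. RCA and LHCB4.2 were also read by dimmer features. After quantile normalization those of RCA differed from wild type by 0.73 and 0.40 in line 41 and by 0.69 and -0.07 in line 45. That of LHCB4.2 differed by 3.03 in line 41 and 2.57 in line 45. Of 11 root markers 3 were on the array. EXPA7 and EXPA18 lay at or under 5.72 on each array, did not pass the dim filter and were lower in both lines. EXPA7 differed from wild type by -0.41 in line 41 and -0.25 in line 45, and EXPA18 by -0.52 and -0.32. PYK10, a beta-glucosidase gene of endoplasmic reticulum bodies, was at 5.80 in wild type and at 6.69 in both lines (log2 change 0.88 ± 0.20 SE, adjusted p = 0.0191 by limma). Of 8 trichome genes only TRY was on the array, at 6.03, 6.34 and 6.72 in wild type, line 41 and line 45 (adjusted p = 0.170 by limma). The flower and seed markers and MYB23 itself were paired with no feature, which leaves no check of the labels by the transgene.

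AT2G37220 stood furthest from wild type among the cpRNP genes. Its log2 value was 7.25 in wild type against 10.88 in line 41 and 10.72 in line 45. Both lines were far above the wild-type array and close to each other. The value was 12.4-fold higher in line 41 and 11.1-fold higher in line 45, a mean log2 difference of 3.55 ± 0.11 (SD, n = 2 lines). Ranked by the line that differed less, 31 of the 16905 features tested lay further above wild type. CP29, a close copy that was paired with no feature here, can share signal with AT2G37220 on an array.

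AT1G60000 was read by 2 features, and both were lowest in wild type and highest in line 45. The feature with the higher mean had log2 values of 8.14 in wild type against 9.67 in line 41 and 9.91 in line 45. This is a mean log2 difference of 1.66 ± 0.17 (SD, n = 2 lines), or 3.15-fold. The second feature had 8.68 in wild type against 9.28 in line 41 and 9.58 in line 45, a mean log2 difference of 0.75 ± 0.22 (SD, n = 2 lines), or 1.68-fold. The features thus gave the same order of the arrays and unequal sizes. Their differences from wild type lay 0.93 apart in line 41 and 0.87 apart in line 45 on the log2 scale, more than the SD between the lines for either feature. The gene has several RefSeq transcripts, and its annotated span overlaps that of EMB3108 (AT1G59990), a neighbouring RNA helicase gene with no feature in the tables used here. Which transcript or strand each feature reads is not given in the sources used here.

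AT2G35410 had nearly the same value in both lines. It was at 9.50 in wild type against 9.99 in line 41 and 9.98 in line 45, a mean log2 difference of 0.49 ± 0.01 (SD, n = 2 lines), or 1.40-fold. The direction rests on the scaling, since after quantile normalization of the 3 arrays the lines lay below wild type, at a log2 difference of -0.40. Its annotated span overlaps that of AT2G35420, whose feature was at 5.98 in wild type against 5.72 in line 41 and 5.97 in line 45.

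AT1G01080 was dim in wild type. Its log2 value was 5.55 there, below the level of the filter on dim features (5.64), and 6.19 in line 41 and 6.32 in line 45. Both lines lay above wild type, by a mean log2 difference of 0.70 ± 0.09 (SD, n = 2 lines), or 1.62-fold, as measured. With the wild-type value raised to the filter's level, the mean of the lines was 1.53-fold higher. That level is a percentile of feature means and not a limit of detection.

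AT4G09040 was the only measured cpRNP gene below wild type in both lines in the values as deposited. It was at 6.45 in wild type against 5.89 in line 41 and 6.34 in line 45, a mean log2 difference of -0.33 ± 0.32 (SD, n = 2 lines). Line 41 stood apart, while line 45 lay only 0.11 below wild type. The SD between the lines was nearly as large as the mean difference.

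**Figure D1:**
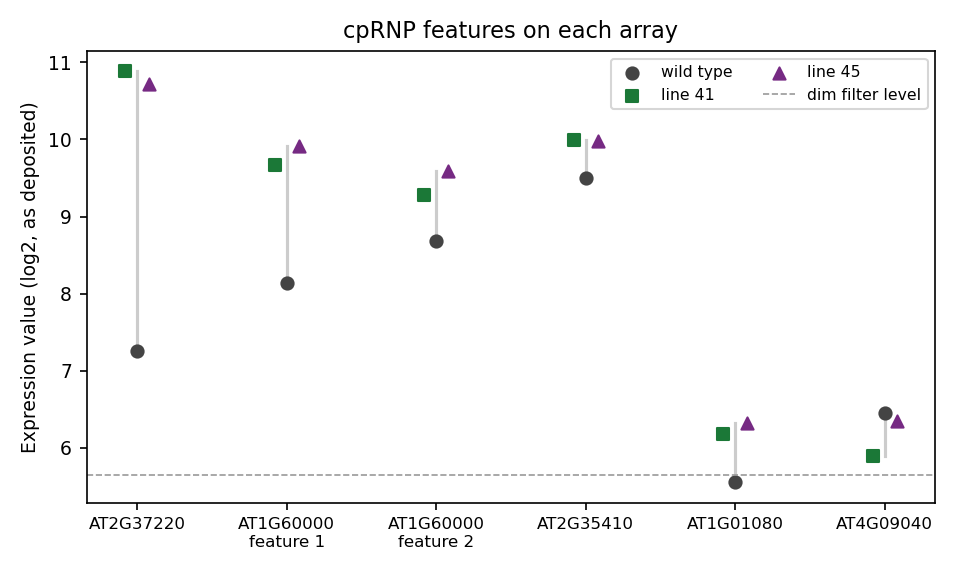
Log2 expression value (vertical axis) of each of the 6 cpRNP features (horizontal axis) on the 3 arrays; circles are wild type, squares line 41 and triangles line 45, and the dashed line is the dim filter's level of 5.64. AT2G37220 rises from 7.25 in wild type to 10.88 and 10.72 in the lines, the other features differ by less, and AT4G09040 is lower in both lines.

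By size alone, 2 of the 5 measured genes, AT2G37220 and AT1G60000, were at least 2-fold higher than wild type in both lines, and 0 were lower by that much. AT1G60000 was counted by its feature with the higher mean. Its second feature was under 2-fold, at 1.52-fold in line 41 and 1.87-fold in line 45. Over all features tested, the share past 2-fold in both lines was 9.77% on the higher side and 1.44% on the lower side. At any size, 4 of the 5 genes lay above wild type in both lines and 1 below it, where 39.1% of all features tested lay above and 44.4% below. Since the genes were listed with these values known, nothing is read from their share against that background. The median log2 difference of the 5 genes was 0.63 in line 41 and 0.76 in line 45, and that of all features tested was -0.05 and -0.02. Both lines are set against the same wild-type array, so their differences are not independent. In bulk leaf RNA, fewer cells of a type and less RNA per cell cannot be told apart. The 4 leaf markers moved in the same direction as AT2G37220 and AT1G60000, and their part in these differences was not tested.

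**Figure D2:**
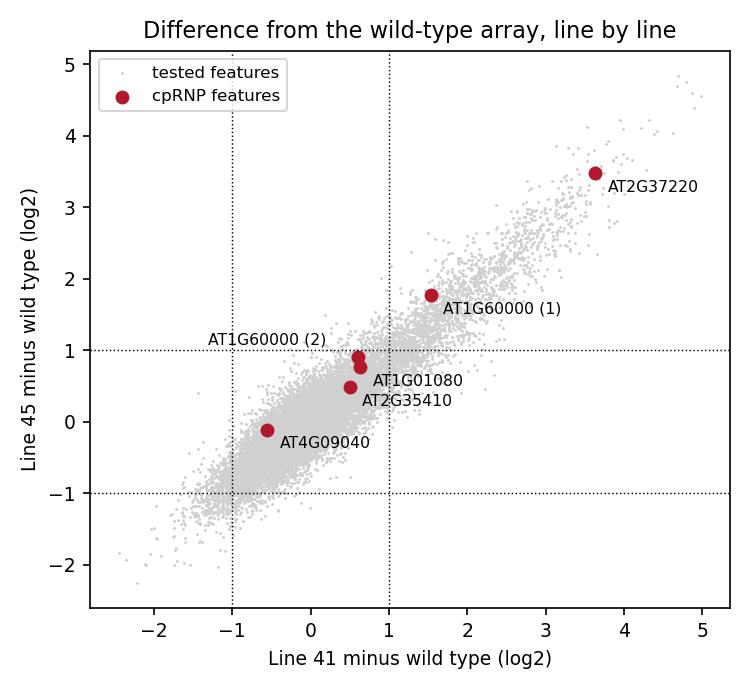
Difference from the wild-type array in line 41 (horizontal axis, log2) and in line 45 (vertical axis, log2) for all 16905 features tested (grey) and the 6 cpRNP features (red); dotted lines mark 2-fold. AT2G37220 lies at 3.63 and 3.47, near the upper end of the grey points, and the features of AT1G60000 lie at 1.53 and 1.78 and at 0.60 and 0.90.

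Between the lines, no cpRNP feature was 2-fold apart, as was the case for all but 0.491% of the features tested. With 1 array a line there was no test of this difference. AT4G09040 differed most, with line 45 higher than line 41 by 0.45 on the log2 scale, and 86.9% of the features tested had a smaller gap. AT2G35410 differed least, by 0.02. The features of AT1G60000 were higher in line 45 by 0.24 and 0.30, and AT1G01080 by 0.13, while AT2G37220 was higher in line 41 by 0.16. The median gap over all features tested was 0.18.

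Rescaling the arrays changed the sizes unevenly. Medians within 0.1 did not make the bright ends of the arrays level. Quantile normalization moved AT2G35410 from 9.50 to 10.12 in wild type. In lines 41 and 45 it moved this gene from 9.99 to 9.69 and from 9.98 to 9.76. The leaf marker RCA went from 11.90 to 12.95 in wild type, and in the lines from 14.13 to 13.57 and from 13.75 to 13.39. What lies behind this uneven shift was not tested. Centring the arrays on their medians or on their 75th percentiles moved each cpRNP difference by less than 0.1 on the log2 scale. Quantile normalization brought AT2G37220 from 3.55 to 3.14 and the first feature of AT1G60000 from 1.66 to 1.21. It brought the second feature of AT1G60000 from 0.75 to 0.25. AT1G01080 stood at 0.77 and AT4G09040 at -0.31 after it, each within the SD between the lines of its value as deposited. AT2G37220 and the first feature of AT1G60000 were thus more than 2-fold higher under each of the 4 scalings, and AT2G35410 alone changed sign.

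**Figure D3:**
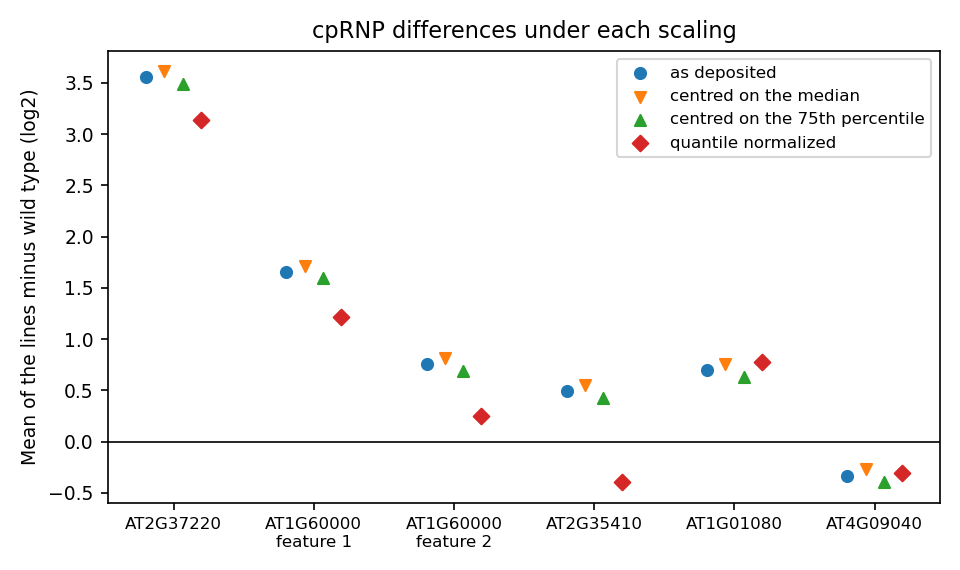
Mean log2 difference of the 2 lines from wild type (vertical axis) for each cpRNP feature (horizontal axis) in the values as deposited, after centring on the median or the 75th percentile, and after quantile normalization. The 4 points of AT2G37220 lie between 3.14 and 3.61, and those of AT2G35410 lie at 0.42 to 0.55 except for -0.40 after quantile normalization.

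Other nuclear genes of chloroplast RNA maturation were looked at as a list of 52 nucleases, splicing factors, editing factors, pentatricopeptide repeat proteins, helicases and other RNA-binding proteins. Of these 18 were on the array and 12 passed the dim filter. By limma, fitted over all 16905 features, 3 of the 12 rose, 0 fell and 9 did not pass, where 14.6% of all features tested rose and 7.27% fell. The list's median log2 change was 0.10, beside -0.04 for all features tested. The 0 falls are by limma's adjusted p under 0.05, and 1 of the 12, LPA66, was lower at an unadjusted p under 0.05. Of the genes that did not pass, 1, AT5G38290, was higher at an unadjusted p under 0.05. Over all 16905 features tested, 5952 had an unadjusted p under 0.05 by limma, in either direction.

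The 3 that rose were AT5G46580, AT3G23700 and CAF1. AT5G46580 was at 6.29 in wild type against 8.63 in line 41 and 7.86 in line 45 (log2 change 1.95 ± 0.32 SE, adjusted p = 0.00493 by limma). It was the only one of the 12 at least 2-fold higher in both lines. AT3G23700 was at 7.39, 8.26 and 8.33 in the same order (log2 change 0.90 ± 0.22, adjusted p = 0.0250 by limma). CAF1 (AT2G20020), a CRM-domain factor for splicing of chloroplast group II introns, was at 6.23, 6.95 and 7.20 (log2 change 0.84 ± 0.23, adjusted p = 0.0328 by limma). In each of the 3, both lines lay above wild type. Without the dim filter limma called no feature of the array (7167 had an unadjusted p under 0.05), and the adjusted p of AT5G46580, AT3G23700 and CAF1 lay at 0.169, 0.120 and 0.168.

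The 9 genes that did not pass had log2 changes of -0.59 to 0.68 and adjusted p of 0.132 to 0.871 by limma. At the upper end, AT5G38290 was at 5.63 in wild type against 6.64 in line 41 and 5.98 in line 45 (log2 change 0.68 ± 0.28 SE, adjusted p = 0.132 by limma). It passed when the arrays were centred on their medians (log2 change 0.74, adjusted p = 0.0488 by limma). Then 4 of the 12 were called higher, as were 2993 of all 16905 features tested. At the lower end, LPA66, an editing factor for a photosystem II transcript, was at 7.02 in wild type against 6.64 in line 41 and 6.23 in line 45 (log2 change -0.59 ± 0.25 SE, adjusted p = 0.132 by limma). Both were named after their values were seen. The other 6 genes on the array lay under the dim filter, with values of 4.70 to 5.65.

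**Figure D4:**
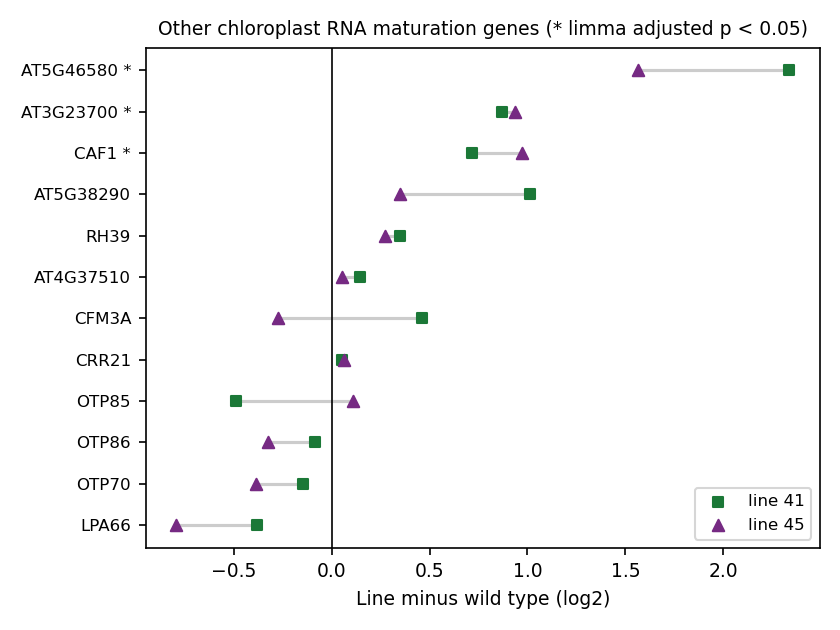
Difference from wild type in line 41 (squares) and line 45 (triangles), on the log2 scale (horizontal axis), for the 12 chloroplast RNA maturation genes past the dim filter (vertical axis); a star marks an adjusted p under 0.05 by limma. AT5G46580 lies furthest right, at 2.34 and 1.56, and most other genes lie within 1 of wild type in both lines.

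Further lists around the family were thinly covered. Of 26 genes for plastid transcription, only AT5G15700 was paired with a feature in the tables used. It was at 5.07 in wild type against 4.62 in line 41 and 4.84 in line 45, under the dim filter. Of the genes that the RefSeq table places on the plastid genome, which include the transcripts that cpRNPs bind, 0 were paired with a feature. Of 21 RNA-binding proteins that act outside the plastid, RBP45B and ATRBP45C were on the array. RBP45B (AT1G11650), a nuclear protein with RNA recognition motifs, was at 8.40 in wild type against 8.77 in line 41 and 9.33 in line 45. It did not pass (log2 change 0.66 ± 0.29 SE, adjusted p = 0.147 by limma). Its second feature stood at 6.94, 8.30 and 8.52. ATRBP45C lay under the dim filter, at 5.45, 5.75 and 5.72.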

How the data were processed

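The values of the deposited table, 1 for each feature on each array, were read as log2, since they lie between 4.04 and 14.8; how the authors made these log2 values (log base, background correction, normalization) is not stated in the table or labels. Column medians (5.96, 5.89 and 5.91) lay within 0.1, so values were kept as deposited, though the bright ends of the arrays were not level. Values under the 5th percentile (4.68) were raised to it, features with a mean under the 40th percentile (5.64) were left out, and the feature with the highest mean stood for a gene, which left 16905. Member values are given without the floor. Both lines together were set against wild type with limma 3.58.1 (R 4.3.3; two-sided moderated test, spread trended on mean signal, Benjamini-Hochberg adjustment over all features, threshold 0.05), with 1 residual degree of freedom, from the lines; the method was tested on simulated data. No member is given a p. Members and lists were chosen with earlier results of these data known. Named genes were the 9 members and, of each list, up to 4 called genes with the greatest change, or otherwise the 2 measured with the greatest change; marker lists are given whole, and 2 maturation genes and the neighbouring genes were added after their values were seen. Gene names and neighbouring genes came from the RefSeq table of assembly TAIR10.1; no build is given for the array, so no coordinates are printed. Close copies within the family, such as AT2G37220 and CP29, can share signal on an array. Promoter and protein sequences, and a planned search for promoter motifs, were not used here. Alternatives were other scalings, filters and floors, all features kept, no trend, and each line left out.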

Additional observations from a re-analysis of the deposited data

How the results depend on the processing

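Quantile normalization gave 2660 features lower by limma against 1229, with 2602 higher against 2468. Under it the other feature of AT1G60000 had the higher mean and stood for the gene, so 1 cpRNP gene in place of 2 was at least 2-fold higher in both lines and the median difference went from 0.70 to 0.25. A dim filter at the 60th percentile kept 3 of the 5 genes, with a median of 1.66. Without the dim filter limma called 0 features higher and 0 lower, with 7167 at an unadjusted p under 0.05, and 0 of the maturation genes rose; the cause was not tested. With all features kept, 2 features of RNA-binding proteins outside the plastid were tested, and 1, the second feature of RBP45B, was called higher. Of all 17271 features then tested, 2555 were called higher. With line 41 or line 45 left out the median difference was 0.76 and 0.63. AT2G37220 then stood at 3.47 and 3.63, and the first feature of AT1G60000 at 1.78 and 1.53. Limma calls could not be made from 1 array per group. AT4G09040 stood at -0.11 without line 41 and -0.56 without line 45. No result was computed for plastid-encoded genes, and plastid transcription genes gave a value only without the dim filter, where 0 were called. No paired analysis was possible because the wild-type group holds 1 array. The lone wild-type array limits each comparison.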

Other observations

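The next protein-coding gene after AT4G09040 in the RefSeq table is AT4G09060. Its feature was at 6.19 in wild type against 5.64 in line 41 and 6.08 in line 45, so it differed from wild type by -0.55 and -0.11, beside -0.56 and -0.11 for AT4G09040. The annotated spans of the genes do not overlap, and the neighbour was looked up after the values of AT4G09040 were seen. The gene after AT2G37220, AT2G37230, differed from wild type by 0.47 in line 41 and 0.39 in line 45, beside 3.63 and 3.47 for AT2G37220. The gene after AT1G60000, AT1G60010, was dim on each array, at 4.79, 5.21 and 5.33. The gene before AT2G35410, AT2G35390, was read by 2 features, which differed from wild type by 0.19 and 0.35 in line 41 and by 0.09 and -0.15 in line 45. The second feature of RBP45B differed from wild type by 1.36 in line 41 and 1.58 in line 45, while the first differed by 0.38 and 0.93.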
